A study of Mus musculus with 8 samples.

Results

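The genes whose platform symbol begins with Kcn encode potassium channels and their accessory subunits. They were chosen by that symbol alone, from probe sets that carry a single gene symbol, and each gene was represented by its probe set with the highest mean signal over 8 arrays. There were 62 such genes among the 12393 named genes of the array, covered by 90 probe sets. By class, 20 encode voltage-gated channels, 13 inward rectifiers, 8 tandem-pore leak channels and 6 calcium-activated channels or their relatives, and 15 encode accessory subunits.

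The arrays held total RNA of mouse eyes. Wild-type and KPAW eyes were taken at 5 days and at 1 month of age, and each of the 4 groups was measured on 2 arrays, numbered I and II. For the wild type at 5 days the labels name C57Bl6, while the strain of the other groups and the meaning of KPAW are not given in the labels. No treatment is named, and the labels do not say whether the arrays of a group came from separate animals, so the p-values below measure only the spread between these arrays.

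Potassium channels let potassium leave or enter a cell along its gradient and so set the resting potential and the shape of electrical signals. Voltage-gated channels open on depolarization, inward rectifiers hold cells near the potassium equilibrium potential, and leak channels of the tandem-pore class stay open at rest. In the eye, inward rectifiers of Mueller glia clear potassium released by photoreceptors and neurons, and channels of the lens, cornea and ciliary epithelium take part in fluid and ion transport.

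Signals are the deposited values, taken as linear, after each array was scaled to a common trimmed mean. They are in arbitrary units and are compared only within a probe set. Differences are on the scale of log2(scaled signal + 0.02106), which understates changes of low signals, and are given ± the standard error of a limma fit over all arrays. A gene was called when the adjusted p over all 15838 tested probe sets was under 0.05. Of the 62 genes, 34 lay above the filter on mean signal and were tested, and 28 lay below it. A gene that is bright at a single age can pass that filter through that age alone. The mean at the dimmer age lay under the filter value in 10 tested members, among them Kcnab3, Kcne1l, Kcne2 and Kcnj14, so the counts of age calls below favour such genes and are given as a description. Among the members fixed for their known places in the eye, Kcnj16, Kcnj13, Kcnv2, Kcnk6 and Kcns3 were not analysed here.

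Some arrays stood apart in the makeup of their RNA. In KPAW I at 1 month the summed scaled signal of 23 rod photoreceptor markers was 4.22, against 57.4 in KPAW II and 53 and 67.1 in the wild-type arrays of that age, and 6 of them, including Pde6a, Pde6b and Cnga1, were at the lowest listed value in KPAW I. The sum over 18 markers of epidermis and keratinization at 1 month was 30.3 in KPAW I, 11.5 in KPAW II, and 0.651 and 0.625 in wild type. At 5 days the same sum was 5.93 and 7.72 in wild type I and KPAW I, and 0.653 and 0.531 in wild type II and KPAW II. Sex-linked RNA also differed: at 5 days Xist had scaled signals of 2.95 and 3.64 in wild type and of 3.13 in KPAW II, and it ran from 0.0523 to 0.0861 in the other arrays. Eif2s3y, on the Y chromosome, was at 0.0109 and 0.0126 in the 5-day wild type and 0.00901 in KPAW II at 5 days, and from 0.0923 to 0.149 elsewhere. The wild-type age comparison thus sets arrays with high Xist against arrays with low Xist, and age and sex-linked RNA cannot be told apart there. In whole eyes, fewer cells of a type and less RNA per cell cannot be told apart either.

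The ages were compared first, within each kind of eye. In wild type, between 5 days and 1 month, 8 members rose and 1 fell among the 34 tested, that is 23.5% and 2.94%. The background was 8.73% of all tested probe sets higher and 9.33% lower. The genes that rose were the beta subunits Kcnab1, Kcnab2 and Kcnab3, the partner subunits Kcnip4 and Kcne2, the calcium-activated channel Kcnma1 and the inward rectifiers Kcnj10 and Kcnj14. The gene that fell was Kcne1l. The median difference over the tested members was 0.23, against -0.01 over all 9492 genes tested. In KPAW eyes 5 members rose (14.7%) and 1 fell (2.94%), against backgrounds of 6.76% and 7.51%, and the median difference was 0.37 against -0.03. Markers moved with age as well: in wild type 9 of 12 corneal epithelium markers, 4 of 10 cone markers and 3 of 22 tested rod markers rose, as did 6 of 13 of Mueller glia and astrocytes, while 9 of 10 fibroblast and stroma markers (median -1.53) and 9 of 12 cell cycle markers (median -0.95) fell. Their part in the channel genes' differences was not tested.

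**Figure D1:**
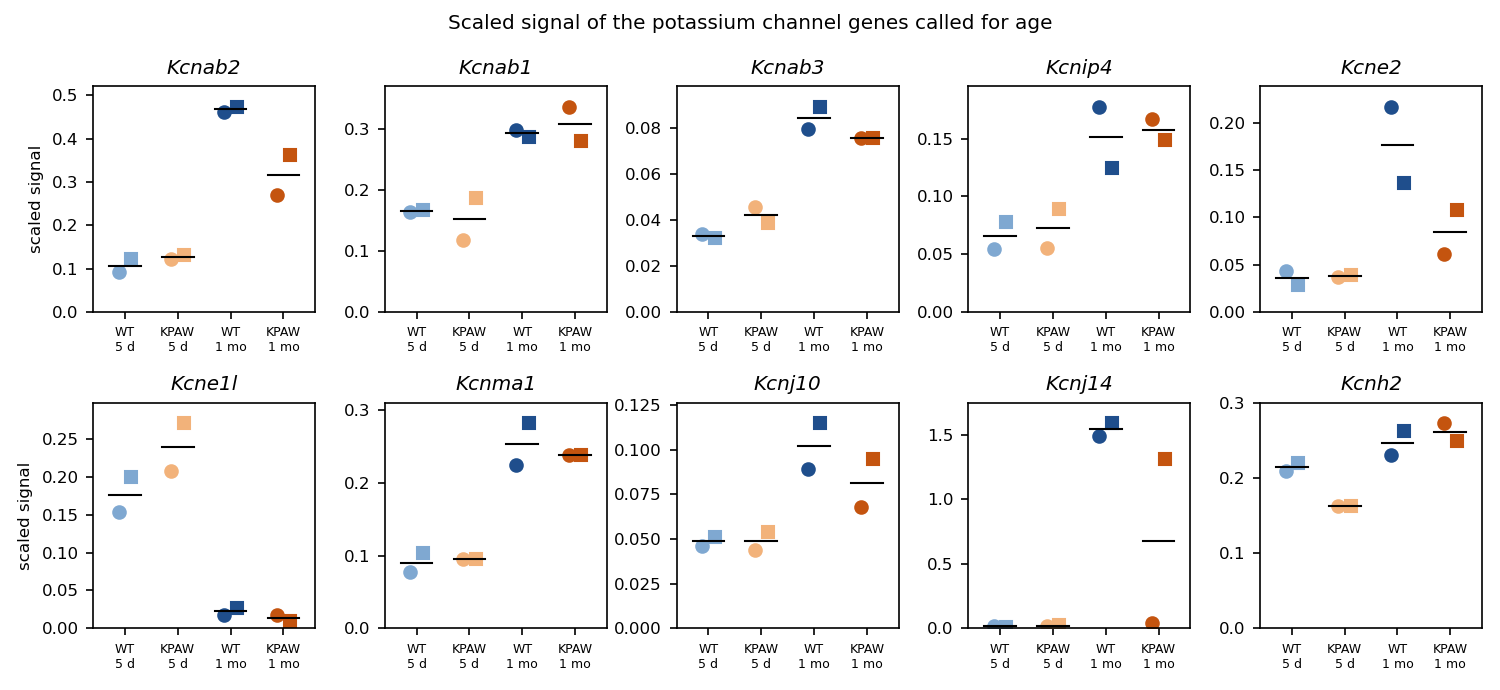
Scaled signal (arbitrary units, linear axis from 0) of the 10 potassium channel genes called for age in either kind of eye. Each point is an array (circle I, square II) and each bar is the mean of a group of 2. Kcne1l is high at 5 days and the other genes are higher at 1 month. In Kcnj14 KPAW I at 1 month lies at 0.0402 while KPAW II lies at 1.31.

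Accessory subunits, which do not form a pore themselves, made up 12 of the 34 tested members. In wild type 5 of them rose (41.7%) and 1 fell (8.33%), against 23.5% and 2.94% of all tested members. In KPAW 3 rose (25%) and 1 fell (8.33%), against 14.7% and 2.94%. Of those called, Kcnab3, Kcne1l and Kcne2 had a mean under the filter value at their dimmer age. The 3 Kcnab genes encode cytoplasmic beta subunits that bind Shaker-type voltage-gated channels and can speed their inactivation. Kcnab2 had scaled signals of 0.091 and 0.122 in wild type and 0.121 and 0.132 in KPAW at 5 days, and of 0.462 and 0.474 in wild type and 0.27 and 0.361 in KPAW at 1 month. On this brighter probe set every 1-month array lay above every 5-day array, and at 1 month both KPAW arrays lay below both wild-type arrays. With age Kcnab2 rose by 1.95 ± 0.18 in wild type (3.86-fold, adjusted p = 0.000793) and by 1.17 ± 0.18 in KPAW (2.26-fold, adjusted p = 0.00676).

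Kcnab1 stood at 0.164 and 0.167 in wild type and 0.117 and 0.187 in KPAW at 5 days, and at 0.298 and 0.286 in wild type and 0.336 and 0.279 in KPAW at 1 month. The ages did not overlap, while the KPAW and wild-type arrays of each age did. Its rise was 0.74 ± 0.20 in wild type (adjusted p = 0.0413) and 0.95 ± 0.20 in KPAW (adjusted p = 0.0219). Kcnab3 had signals of 0.034 and 0.0319 in wild type and 0.0456 and 0.0387 in KPAW at 5 days, and of 0.0794 and 0.0892 in wild type and 0.0756 in both KPAW arrays at 1 month. It rose in wild type by 0.96 ± 0.17 (adjusted p = 0.00932), and in KPAW its difference of 0.62 ± 0.17 did not pass the test (adjusted p = 0.0516). The ages were again separate in both kinds of eye.

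Kcnip4 encodes a calcium-binding partner of the Shal-type channels that carry A-type current. Its signal was 0.0547 and 0.0775 in wild type and 0.0557 and 0.0895 in KPAW at 5 days, and 0.178 and 0.125 in wild type and 0.167 and 0.149 in KPAW at 1 month. All 1-month arrays were the higher ones, and the rise was 0.98 ± 0.24 in wild type (adjusted p = 0.0295) and 0.95 ± 0.24 in KPAW (adjusted p = 0.0375). Kcnip3, of the same subfamily, had differences of 1.18 ± 0.41 and 1.29 ± 0.41 in wild type and KPAW that were not called (adjusted p = 0.0825 and 0.0724). At 5 days its arrays I stood at 0.0398 and 0.0416 and its arrays II at 0.0126 and 0.0113, so the spread at that age followed the numeral in both kinds of eye. Kcnip1 did not separate the ages, with differences of -0.21 in wild type and 0.19 in KPAW.

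Among the single-pass Kcne subunits, which bind pore subunits and alter their gating, Kcne2 and Kcne1l went opposite ways. Kcne2, known from stomach, heart and choroid plexus, had signals of 0.0436 and 0.0287 in wild type and 0.0369 and 0.0385 in KPAW at 5 days, and of 0.217 and 0.136 in wild type and 0.0609 and 0.108 in KPAW at 1 month. The highest signals were those of the 1-month wild type, with both KPAW arrays between them and the 5-day arrays. It rose by 1.77 ± 0.29 in wild type (3.41-fold, adjusted p = 0.00641), and its difference of 0.81 ± 0.29 in KPAW was not called (adjusted p = 0.101).

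Kcne1l, also named Kcne5, lies on the X chromosome. It had signals of 0.153 and 0.2 in wild type and 0.208 and 0.271 in KPAW at 5 days, and of 0.0174 and 0.0274 in wild type and 0.018 and 0.00958 in KPAW at 1 month, the last at the lowest listed value. The 5-day arrays were all far above the 1-month arrays. It fell by 2.18 ± 0.23 on the log2 scale in wild type (adjusted p = 0.00125) and by 2.90 ± 0.23 in KPAW (adjusted p = 0.000519). KPAW I at 5 days, with Xist at 0.0821 and Eif2s3y at 0.149, was at 0.208 for Kcne1l. The part of sex-linked differences in the Kcne1l values was not tested.

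Kcnab2 had the lowest adjusted p of the members that rose in wild type, and Kcne1l was the member that fell, so the 250 bases upstream of the first annotated start of each are printed here from RefSeq (GRCm38.p6), 5′ to 3′ on the strand of the gene. The Kcnab2 window is chr4:152477550-152477799 on the minus strand, and the Kcne1l window is chrX:142306199-142306448 on the minus strand. Capitals mark the GC box, GGGCGG on either strand.
Kcnab2: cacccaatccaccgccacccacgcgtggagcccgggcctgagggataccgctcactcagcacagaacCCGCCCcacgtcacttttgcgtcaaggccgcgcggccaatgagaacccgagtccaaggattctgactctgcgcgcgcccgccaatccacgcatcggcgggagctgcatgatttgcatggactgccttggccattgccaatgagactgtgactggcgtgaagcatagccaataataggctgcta
Kcne1l: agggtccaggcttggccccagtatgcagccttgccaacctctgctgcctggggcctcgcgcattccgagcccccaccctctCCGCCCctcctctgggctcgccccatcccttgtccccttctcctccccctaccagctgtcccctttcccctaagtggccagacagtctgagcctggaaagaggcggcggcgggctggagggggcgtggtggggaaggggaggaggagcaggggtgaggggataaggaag
Both windows are rich in G and C, at 61.2% for Kcnab2 and 68% for Kcne1l against a median of 52.4% over all promoters of the table. Each holds 1 GC box, a motif found in 32.7% of 32851 promoters of the same length. The E-box CANNTG occurs in the Kcne1l window and not in that of Kcnab2, and in 66.2% of promoters. Neither window holds TATAAA, which 12.4% of promoters do. The table held promoters for 50 of the 62 members. These matches describe the letters of the windows only.

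The pore subunits called for age were a calcium-activated channel, a pair of inward rectifiers and, in KPAW, a voltage-gated channel. Kcnma1 encodes the pore of the large-conductance calcium-activated channel, which couples calcium entry to repolarization. It had signals of 0.0775 and 0.103 in wild type and 0.0953 in both KPAW arrays at 5 days, and of 0.224 and 0.282 in wild type and 0.238 in both KPAW arrays at 1 month. The 1-month arrays were all higher, and KPAW lay within the wild-type range at each age on this brighter probe set. The rise was 1.30 ± 0.17 in wild type (2.47-fold, adjusted p = 0.00281) and 1.15 ± 0.17 in KPAW (2.23-fold, adjusted p = 0.00548). Its accessory subunits were not called: Kcnmb4, the neuronal form, differed with age by -0.25 in wild type and -0.27 in KPAW, and Kcnmb1, the smooth muscle form, by -0.14 and -0.16. The small-conductance channels Kcnn1 and Kcnn2 differed by -0.31 and 0.49 in wild type, also without a call.

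Kcnj10 encodes the inward rectifier by which Mueller glia take up and release potassium. Its signals were 0.0463 and 0.051 in wild type and 0.0441 and 0.0541 in KPAW at 5 days, and 0.0894 and 0.115 in wild type and 0.0681 and 0.095 in KPAW at 1 month. The ages were separate, and the 1-month KPAW and wild-type arrays overlapped. It rose by 0.81 ± 0.21 in wild type (adjusted p = 0.0312), and the difference of 0.54 ± 0.21 in KPAW did not pass (adjusted p = 0.119). The summed signal of 13 markers of Mueller glia and astrocytes was between 10.5 and 12.4 at 5 days and between 15.9 and 20 at 1 month, and its part in the Kcnj10 difference was not tested. The inward rectifiers Kcnj3, Kcnj6, Kcnj11 and Kcnj12 had uncalled wild-type age differences between -0.23 and 0.30.

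Kcnj14, an inward rectifier known from retina and motor neurons, had the largest age difference of the tested members in wild type. At 5 days its signals were 0.0162 and 0.0126 in wild type, the second at the lowest listed value, and 0.0174 and 0.0247 in KPAW. At 1 month they were 1.49 and 1.59 in wild type and 0.0402 and 1.31 in KPAW. At 1 month both wild-type arrays and KPAW II were thus high, and KPAW I was near the 5-day arrays. In wild type it rose by 5.46 ± 1.12 (adjusted p = 0.0152). The 5-day signals are near the lowest listed value, so the size depends on the pseudocount: it was 6.02 with the 5th percentile of positive values and 4.44 with the 40th. In KPAW the difference of 2.77 ± 1.12 was not called (adjusted p = 0.14). The groups share 1 estimate of the spread. Without KPAW I at 1 month the KPAW difference was 4.99 (adjusted p = 6.12e-05), without KPAW II it was 0.54 (adjusted p = 0.117), and as deposited it was 2.79 (adjusted p = 0.00359).

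**Figure D2:**
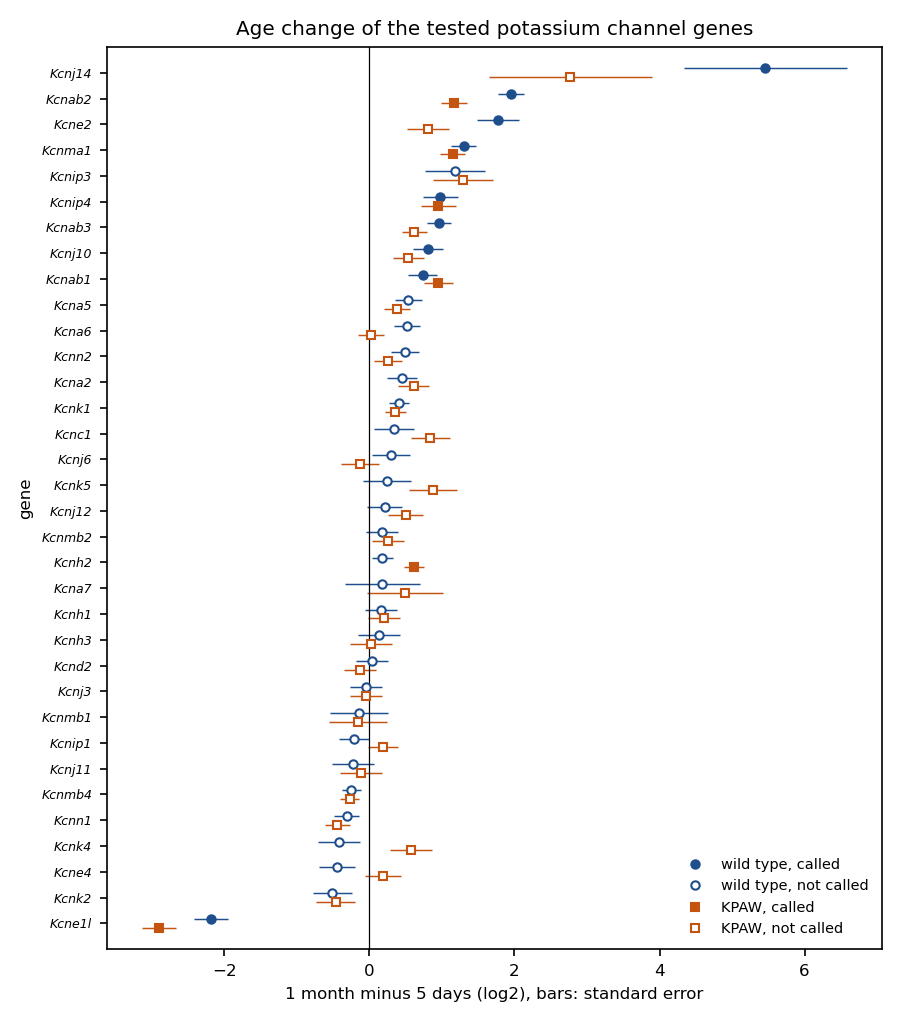
Difference between 1 month and 5 days (log2, 1 month minus 5 days) for each of the 34 tested potassium channel genes, in wild type (circles) and KPAW (squares), with the standard error of the fit as bars. Filled symbols passed the test and open symbols did not. Kcne1l is the only filled symbol left of 0, and Kcnj14 has the widest bars.

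The voltage-gated pore subunits had smaller age differences. None of the 9 tested was called in wild type, where their differences ran from 0.04 to 0.54, and Kcnh2 was called in KPAW. Kcnh2, the ether-a-go-go related channel known for cardiac repolarization, had signals of 0.209 and 0.22 in wild type and 0.163 and 0.162 in KPAW at 5 days, and of 0.23 and 0.263 in wild type and 0.273 and 0.249 in KPAW at 1 month. The 5-day KPAW arrays were the lowest of all. It rose by 0.62 ± 0.14 in KPAW (adjusted p = 0.024) and differed by 0.18 ± 0.14 in wild type (adjusted p = 0.395). The change of its KPAW difference between the ages was 0.44 and was not called, so the ages' differences in the 2 kinds of eye were not shown to differ.

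The Shaker-type channel Kcna5 had age differences of 0.54 in wild type and 0.38 in KPAW (adjusted p = 0.0754 and 0.204), and Kcna2, a channel of axons, of 0.45 and 0.61 (adjusted p = 0.189 and 0.0965). Kcnc1, the channel of fast-spiking neurons, had 0.34 and 0.84 (adjusted p = 0.421 and 0.0788). These values all lay above 0 and none passed. Among the leak channels Kcnk1 had 0.41 and 0.36 (adjusted p = 0.0771 and 0.123), and Kcnk2, a mechanosensitive channel, -0.51 and -0.46 (adjusted p = 0.23 and 0.288). Kcnd2, a Shal-type pore, and Kcnh1 had differences between -0.13 and 0.20.

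Of the members called for age, 5 were called in both kinds of eye, which is 55.6% of those called in wild type and 83.3% of those called in KPAW. Over all tested genes these shares were 55.3% and 69.2%. These were Kcnab1, Kcnab2, Kcne1l, Kcnip4 and Kcnma1. The age difference had the same sign in wild type and KPAW in 29 of 34 tested members (85.3%), and in 76.2% of all tested genes. The wild-type count depended on single arrays: it was 4 without wild type I or without wild type II at 5 days, 5 without wild type I at 1 month and 4 without wild type II at 1 month. Kcnab2, Kcne1l, Kcne2 and Kcnma1 were called each time. The call of Kcnj14 was lost without any single wild-type array, with differences between 5.39 and 5.54. The spread shared by the groups there includes its 1-month KPAW arrays, at 0.0402 and 1.31. Fitted with limma on the wild-type arrays alone, its difference was 5.46 (adjusted p = 3.29e-05). In KPAW the calls of Kcnab2, Kcne1l and Kcnma1 held without any single array. That of Kcnab1 was lost without KPAW I at 5 days or KPAW I at 1 month (adjusted p = 0.0708 and 0.0734). Kcnh2 was no longer called without either array of the 5-day groups or without KPAW I at 1 month, with differences of 0.55 to 0.62. Kcnip4 was no longer called without any single array of the 5-day or KPAW groups, with differences of 0.69 to 1.22. Fitted on the KPAW arrays alone, the KPAW count was 3, namely Kcnab2, Kcne1l and Kcnma1. On the values as deposited the wild-type count was 14.

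KPAW and wild-type eyes were then compared at 1 month. No tested member passed the limma test (4 had an unadjusted p under 0.05, and the lowest adjusted p was 0.675). Over all tested probe sets 0.0126% were called higher and 0.0126% lower. The KPAW arrays were both above the wild-type pair in 7 members and both below it in 10, against 18.2% and 18.3% of all 9492 genes. The median difference of the members was -0.04, against -0.00 over all genes.

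Kcnj14 had the lowest difference, -2.45 ± 1.12 (adjusted p = 0.675), and it came from a single array. On the log2 scale KPAW I differed from the wild-type mean by -4.67 and KPAW II by -0.23. Without KPAW I the difference was -0.23 (adjusted p = 1), and without KPAW II it was -4.67 (adjusted p = 3.74e-05). On the values as deposited it was -2.72 and was called (adjusted p = 0.0359). The rod markers moved the same way, with a median difference from the wild-type mean of -4.13 for KPAW I but -0.01 for KPAW II, and their part in the Kcnj14 value was not tested.

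**Figure D3:**
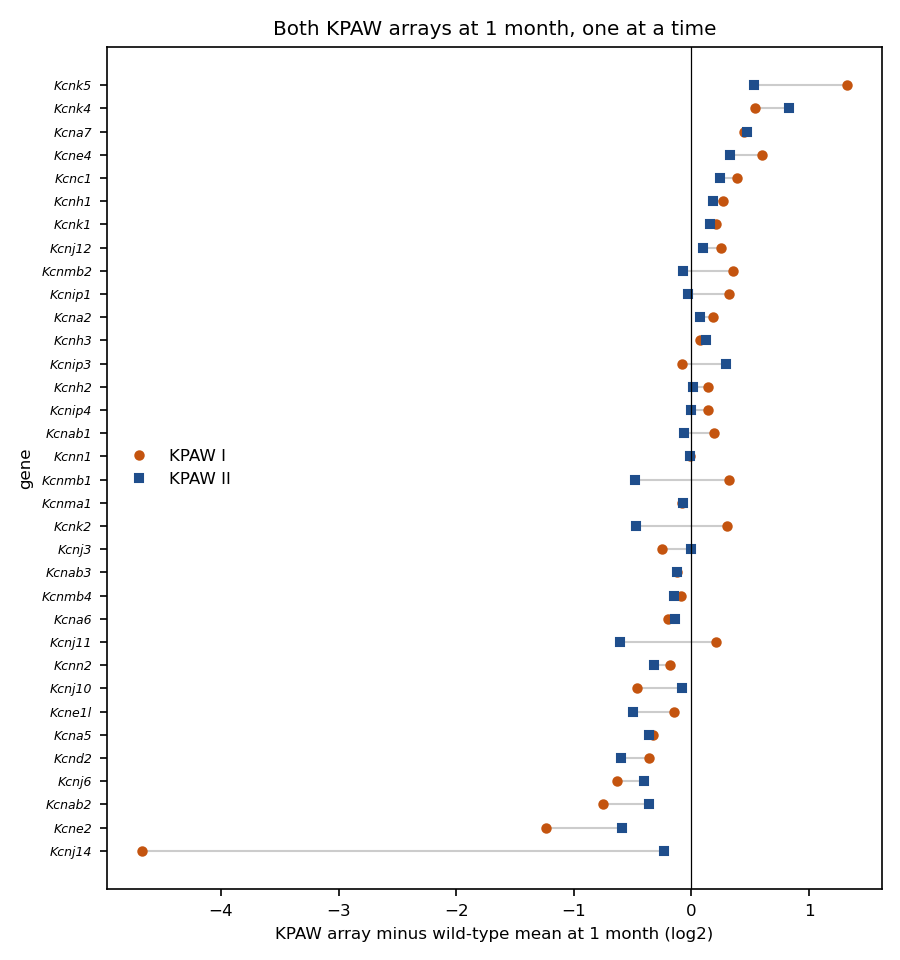
Log2 difference of each KPAW array at 1 month from the mean of both wild-type arrays of that age, for the 34 tested potassium channel genes, with circles for KPAW I and squares for KPAW II. For Kcnj14 KPAW I lies at -4.67 and KPAW II at -0.23, while for each of the other genes the arrays lie within 1 of each other.

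The other low values were shared by both KPAW arrays. Kcne2 differed by -0.91 ± 0.29 (adjusted p = 0.675), with KPAW I at -1.24 and KPAW II at -0.59. Kcnab2 differed by -0.55 ± 0.18 (adjusted p = 0.675), with -0.75 and -0.36. In both genes, called for age in wild type, the KPAW arrays lay below the wild-type arrays at 1 month and KPAW I was the lower. On the other Kcnab2 probe set the groups overlapped. Kcnj6 and Kcnd2, a G protein-gated inward rectifier and a Shal-type pore, had differences of -0.52 and -0.48, Kcna5 of -0.35, and all 3 had separate groups. Kcnj6 and Kcnd2 had further probe sets, all below the filter. On none of these did both KPAW arrays lie below both wild-type arrays at 1 month. Kcne1l and Kcnj10 had differences of -0.32 and -0.27 with overlapping groups.

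On the upper side stood 2 leak channels. Kcnk5, an alkaline-activated channel of epithelia, had signals of 0.0391 and 0.0331 in wild type and 0.121 and 0.0614 in KPAW at 1 month, and from 0.0173 to 0.0458 at 5 days. Both KPAW arrays at 1 month lay above all the others, KPAW I the more so. The Kcnk5 means of the other groups, from 0.0283 to 0.0383, lay under the filter value of 0.04057. Kcnk5 was thus tested only through its 1-month KPAW arrays, and its values are given as a description. The difference was 0.93 ± 0.33 (adjusted p = 0.675), or 1.32 for KPAW I and 0.53 for KPAW II alone. The other Kcnk5 probe set was at the lowest listed value on every array. Kcnk4, a mechanosensitive leak channel, had signals of 0.0538 and 0.0204 in wild type and 0.06 and 0.0779 in KPAW at 1 month, and differed by 0.69 ± 0.29. Kcna7 and Kcne4 had differences of 0.46 each with separate groups, Kcnc1 of 0.31 and Kcnk1 of 0.19 likewise, and Kcnh1 and Kcnj12 of 0.22 and 0.17 with overlapping groups; as deposited Kcnk1, Kcnh1 and Kcnj12 were at -0.07, -0.01 and -0.02. The epidermal markers were also high in both KPAW arrays, with medians 5.22 (I) and 3.63 (II) above the wild-type mean, and conjunctival markers had 1.9 and 1.2. Their part in these values was not tested.

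**Figure D4:**
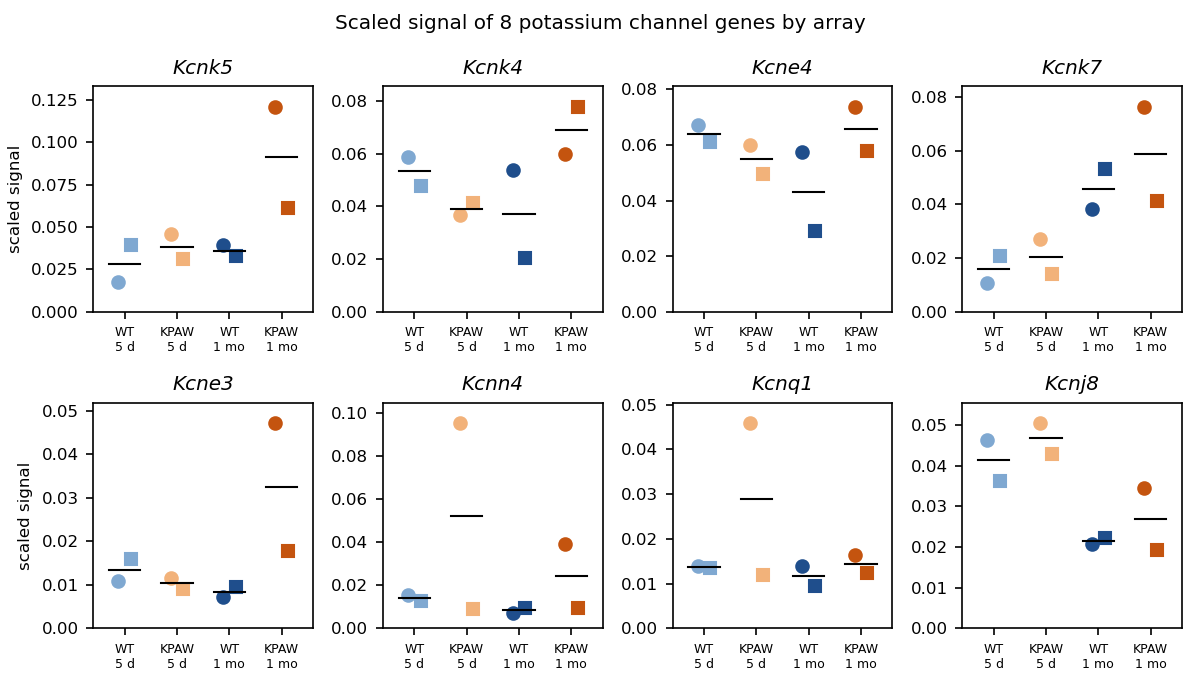
Scaled signal (arbitrary units, linear axis from 0) of 8 potassium channel genes with low signal, by group; each point is an array (circle I, square II) and each bar the mean of 2 arrays. Kcnk5 and Kcne3 are highest in KPAW I at 1 month, and Kcnn4 and Kcnq1 are highest in KPAW I at 5 days.

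The 28 members below the filter had scaled signals between 0.00711 and 0.0955, and most of their values lie near the lowest listed one. Kcne1, Kcnj15 and Kcns1 were at the lowest listed value on every array, which gives no order between groups. Single arrays stood out in some genes known from epithelia. Kcne3, which keeps Kcnq1 open in intestinal and airway epithelium, at 1 month was at 0.0472 on array I of KPAW and 0.0178 on array II, and between 0.00711 and 0.016 in the other arrays. Kcnn4, the intermediate-conductance channel of epithelial and immune cells, was at 0.0955 in KPAW I at 5 days and 0.0394 in KPAW I at 1 month, and at most 0.0154 elsewhere. The other Kcnn4 probe set was at 0.0552 in KPAW I at 5 days but at the lowest listed value in KPAW I at 1 month. Kcnq1 was at 0.0459 in KPAW I at 5 days and at most 0.0165 elsewhere. The high arrays were among those with high epidermal marker signal, and wild type I at 5 days, with a sum of 5.93 for those markers, was at 0.0109 for Kcne3, 0.0154 for Kcnn4 and 0.014 for Kcnq1. The part of those cells' RNA in these values was not tested.

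Kcnj9, a G protein-gated inward rectifier of neurons, was below the filter because its 5-day signals were low. They were 0.0109 and 0.0126 in wild type and 0.0125 and 0.00901 in KPAW, and at 1 month 0.053 and 0.0587 in wild type and 0.0374 and 0.0594 in KPAW. The ages did not overlap. In the fit without a filter its age difference was 1.23 ± 0.18 in wild type (adjusted p = 0.00636) and 1.11 ± 0.18 in KPAW (adjusted p = 0.0112); this gene was chosen after its values were seen. Kcnj8, the ATP-sensitive channel pore of vascular smooth muscle and pericytes, was at 0.0463 and 0.0363 in wild type and 0.0505 and 0.0429 in KPAW at 5 days, and at 0.0207 and 0.0222 in wild type and 0.0345 and 0.0193 in KPAW at 1 month. Its 5-day arrays were the higher ones, and without a filter the difference of -0.55 ± 0.20 in wild type was not called (adjusted p = 0.122). Kcnk7 was higher at 1 month, from 0.0385 to 0.0765, than at 5 days, from 0.0109 to 0.0272, with 0.86 ± 0.28 in wild type without a filter (adjusted p = 0.0863). Kcna1, an axonal Shaker-type channel, was between 0.0116 and 0.0238 at 5 days and between 0.0125 and 0.069 at 1 month, with KPAW I low and KPAW II high. Kcnip2 ran from 0.024 to 0.0494 without separating any groups by age. Its KPAW arrays, from 0.024 to 0.0334, lay below its wild-type arrays, from 0.0354 to 0.0494. On its other probe set KPAW and wild type overlapped at both ages. Without a filter the Kcnip2 difference at 1 month, -0.41 ± 0.19, was not called (adjusted p = 0.713). Kcnj2, a strong inward rectifier, and Kcnn3, a small-conductance channel, were at the lowest listed value in 7 of 8 arrays, and Kcnk3, an acid-sensitive leak channel, in 4.

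At 5 days no tested member differed between KPAW and wild type in the limma test (1 had an unadjusted p under 0.05, and the lowest adjusted p was 1). The background was 0% higher and 0% lower over all probe sets. The KPAW pair was entirely above the wild-type pair in 5 members and entirely below it in 7, against 14.9% and 18.8% of all genes. The differences ran from -0.36 to 0.40. Kcnh2 was the lowest, at -0.36 ± 0.14, followed by Kcnj11 at -0.32, Kcnk4 and Kcnd2 at -0.31 and Kcnip1 at -0.26, all with separate groups. Kcne1l was the highest, at 0.40 ± 0.23, followed by Kcna6 at 0.32, Kcnk5 at 0.29, and Kcnj14 and Kcnk1 at 0.24. Of these Kcnk5 had overlapping groups. Smaller values were -0.19 for Kcnc1, -0.18 for Kcna5 and -0.17 for Kcne4, and 0.22 for each of Kcnab2, Kcnab3 and Kcnh3, and of these only Kcne4 and Kcnab3 had separate groups.

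The change of the KPAW difference between the ages was called for no member (3 had an unadjusted p under 0.05, and the lowest adjusted p was 0.809), nor for any probe set, a background of 0% in each direction. The lowest values were those of Kcnj14 at -2.70 ± 1.59, Kcne2 at -0.97 ± 0.41, Kcnab2 at -0.78 ± 0.26 and Kcne1l at -0.72 ± 0.33. The highest were those of Kcnk4 at 0.99 ± 0.41, Kcnk5 and Kcne4 at 0.63, and Kcnc1 at 0.50. The value of Kcnj14 was -0.47 without KPAW I at 1 month and -4.92 without KPAW II (adjusted p = 0.000185).

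Several members had further probe sets, of which 6 passed the filter. The other probe sets of Kcnab1, Kcnab2 and Kcnip4 were also called for age in wild type, at 0.67, 2.40 and 0.86 (adjusted p = 0.0444, 0.03 and 0.0431). In KPAW they had 0.59, 1.27 and 0.68, and none was called (adjusted p = 0.0739, 0.196 and 0.0985). On the other Kcnab2 probe set the 1-month KPAW arrays, at 0.022 and 0.171, overlapped those of wild type, at 0.118 and 0.195. They also overlapped the 5-day KPAW arrays, at 0.0116 and 0.0225. Both 5-day wild-type arrays of this probe set were at the lowest listed value (0.0109 and 0.0126). Its 5-day means, 0.0118 in wild type and 0.0171 in KPAW, lay under the filter value of 0.04057. It was thus tested only through its 1-month arrays, and its age difference is given as a description. The probe sets of Kcnmb2 disagreed in direction, with a wild-type age difference of 0.18 for the brighter and -0.09 for the other, and neither was called. The dimmer Kcnma1 probe set lay below the filter. At 5 days its KPAW arrays were at 0.0194 and 0.0192, above 0.0131 and 0.0132 in wild type. At 1 month they were at 0.034 and 0.0405, below 0.0438 and 0.0522 in wild type.

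Genes that work beside these channels were taken from lists by function, and their counts stand against the same backgrounds for age, 8.73% higher and 9.33% lower in wild type and 6.76% and 7.51% in KPAW. Among sodium-potassium pumps and their subunits, 3 of 10 tested rose with age in wild type and 3 in KPAW, and none fell. These were Atp1b1 (1.06 in wild type and 1.26 in KPAW), Atp1b3 (0.76 and 1.13) and Fxyd1 (1.09 and 1.47), which encode beta subunits and a regulator of the pump that builds the potassium gradient. Among 6 tested cotransporters and exchangers 3 rose in each kind of eye and none fell. The neuronal and ubiquitous chloride cotransporters Slc12a5 and Slc12a2 rose in both, by 1.85 and 1.04 in wild type and 1.91 and 0.88 in KPAW. The rod exchanger Slc24a1 rose by 4.64 in wild type, and Slc24a3 by 1.15 in KPAW.

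Of 7 tested partner subunits outside the Kcn symbols none was called in wild type, and Lrrc26, a subunit of the Kcnma1 channel, rose by 1.38 in KPAW (adjusted p = 0.0295). Of 7 tested anchoring and trafficking genes 2 rose and 1 fell in wild type, and 2 rose and none fell in KPAW. The scaffold Dlg1 rose by 0.79 and 0.56 and the spectrin Sptbn4 by 0.95 and 0.88, in wild type and KPAW, while dystroglycan, Dag1, fell by 0.80 in wild type. Of 14 tested sodium, calcium and cyclic nucleotide-gated channel genes 2 rose and 1 fell in wild type: Scn1a rose by 1.52, Cacna1f, a calcium channel of photoreceptor terminals, by 1.57, and Scn3b fell by 1.21. In KPAW Scn1a rose by 1.24 and none fell. These few calls among 14 genes are near the background shares. None of these genes was called between KPAW and wild type at either age. The rod genes Cnga1, Slc24a1 and Cngb1 had uncalled differences of -2.77, -2.13 and -1.51 at 1 month, where KPAW I had low rod marker signal.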

How the data were processed

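Total RNA of mouse eyes was measured on 8 Affymetrix arrays, 2 in each of 4 groups, with groups taken from the sample titles. The authors deposited a signal intensity for every probe set on every array, made with software not given in the sources used here. The scale is not given either, and the values were taken as linear. Control probe sets had a median of 1 and the lowest listed value was 0.01. Precision is limited by the number of arrays.

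The 64 controls among 22690 probe sets were dropped. Arrays were brought to a common trimmed mean, with 2% taken off each end, by factors of 0.7109 to 1.265. The pseudocount was the 20th percentile of positive values, and probe sets above the 30th percentile of mean signal were kept. Probe sets with several symbols (691) were not used for names. limma 3.58.1 (R 4.3.3) fitted 1 mean per group with a variance trend and 4 residual degrees of freedom, with Benjamini-Hochberg adjustment over 15838 probe sets. The script was tested on simulated data. Tables, promoter motifs and plots used Python 3.11.15, pandas 2.3.3 and matplotlib 3.10.9.

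The members and lists were chosen with earlier results of these data known. Named in the text are all called members, the 8 largest differences each way between KPAW and wild type, the 4 largest each way of their change with age, and members with known places in the eye. Exceptions chosen after seeing values are stated. Alternatives changed the scaling, pseudocount, filter, variance model, groups in the fit, replicate block and probe set, and left out each array in turn.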

Additional observations from a re-analysis of the deposited data

Results flagged for a closer look

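In 5 members both KPAW arrays lay on 1 side of both wild-type arrays at 5 days and on the opposite side at 1 month. That is 5 of 34 tested members (14.7%), and 7.6% of all 9492 tested genes did the same. The test of the change between the ages called none of them (limma), so the differences at the 2 ages were not shown to differ. The change of the KPAW difference was -0.50 for Kcna6, -0.35 for Kcnab3 and -2.70 for Kcnj14, which were above wild type at 5 days and below it at 1 month. It was 0.63 for Kcne4 and 0.99 for Kcnk4, which were below at 5 days and above at 1 month. For Kcnj14 the value was -0.47 without KPAW I at 1 month.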

How the results depend on the processing

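The calls of Kcnab2, Kcne1l and Kcnma1 for age held in both kinds of eye in all 17 alternatives, and that of Kcne2 in wild type in all 16 it had. As deposited, the count for age in wild type was 14 and that for KPAW at 1 month was 1 (Kcnj14). There the median of all genes shifted by 0.43 for age in wild type, and 89.2% of called genes were higher against 45.9% after scaling. For age in KPAW 67.8% were higher against 50.7%. On the contrast's groups alone the KPAW age count was 3. Leaving out each array gave 4 to 9 for age in wild type, 4 to 6 in KPAW, 0 to 1 for KPAW at 1 month, and 0 to 1 for the change between ages, the 1 being Kcnj14 without KPAW II at 1 month. With the numerals as a replicate block the counts were 10 and 7 for age in wild type and KPAW, the additional member being Kcnip3 in both, and 0 otherwise. A lone array left in a group is assumed to vary like the other groups. The labels do not say that numerals pair arrays. Deviations of same-numbered arrays from their group means correlated at -0.0174 to 0.309 between groups. Among values near 0, as deposited Kcnh1, Kcnk1 and Kcnj12 turned to -0.01, -0.07 and -0.02 at 1 month and Kcna5 was 0.00 at 5 days. Leaving out each array in turn gave -0.03 to 0.37 for Kcnj12 at 1 month, and at 5 days -0.65 to 0.27 for Kcnc1, -0.39 to 0.03 for Kcna5, -0.04 to 0.62 for Kcnk5 and -0.18 to 0.62 for Kcnh3. The cause was not tested. Signals near the lowest listed value limit what can be seen of the low members.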
